A study of Mus musculus with 2 samples.

Results

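Immediate-early genes were examined in red pulp macrophages sorted from mouse spleen, on 1 array for a pool of SIRPα-KO mice and 1 array for a pool of WT mice. The set held 10 genes, taken by name: Fos, Fosb, Jun, Junb, Jund, Egr1, Egr2, Egr3, Atf3 and Ier3. Each gene had 1 probe whose accession matched one of its RefSeq transcripts, so 10 of 39386 probes, or 10 of 20642 named genes, were followed. The SIRPα-KO mice are labelled as lacking SIRPα, a receptor that restrains myeloid cells when it meets CD47 on other cells. Each pool held cells of 5 mice, mixed before RNA extraction, and strain, age and sex are not given in the labels. The same handling is described for both pools. The spleens were digested with collagenase D and DNase I, and red blood cells were lysed. F4/80-positive CD11b-low cells were sorted by flow cytometry, and globin transcripts were removed from the RNA. Any difference in handling between the pools could not be told apart from genotype. With 1 array per genotype there was no replicate check and no test across samples.

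Immediate-early genes are transcribed within minutes of a stimulus, without new protein synthesis, because the transcription factors that drive them are already in the cell and are switched on by phosphorylation. Fos and Jun proteins pair through leucine zippers to form AP-1, Egr proteins are zinc-finger activators, Atf3 is a stress-induced relative of the AP-1 proteins, and Ier3 is a short-lived regulator of survival and signalling. In macrophages they respond to microbial products, growth factors and adhesion, and enzyme digestion and sorting of a tissue can also induce them. The set was therefore looked at as a readout of handling and activation at the sort.

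Promoter stretches are shown for both genes that were at least 2-fold higher on the SIRPα-KO-labelled array (Egr2 and Ier3) and for a pair of members whose probes gave no signal well above background on either array (Fos and Atf3). Each is the 250 bases before a start site in RefSeq, build GRCm38.p6, written 5′ to 3′ on the strand of the gene. Capitals mark a match to a searched motif on either strand.
Egr2, chr10:67537619-67537868, plus strand: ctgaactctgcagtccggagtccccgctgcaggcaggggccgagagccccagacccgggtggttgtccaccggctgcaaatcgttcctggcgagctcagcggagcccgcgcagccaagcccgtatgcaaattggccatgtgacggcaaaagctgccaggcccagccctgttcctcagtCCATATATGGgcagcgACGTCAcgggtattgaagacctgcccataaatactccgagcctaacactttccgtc
Ier3, chr17:35821463-35821712, plus strand: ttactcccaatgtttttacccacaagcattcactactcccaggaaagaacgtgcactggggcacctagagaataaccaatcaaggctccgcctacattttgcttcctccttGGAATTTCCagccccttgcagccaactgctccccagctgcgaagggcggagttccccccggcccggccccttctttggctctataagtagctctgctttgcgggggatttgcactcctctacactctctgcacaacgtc
Fos, chr12:85473640-85473889, plus strand: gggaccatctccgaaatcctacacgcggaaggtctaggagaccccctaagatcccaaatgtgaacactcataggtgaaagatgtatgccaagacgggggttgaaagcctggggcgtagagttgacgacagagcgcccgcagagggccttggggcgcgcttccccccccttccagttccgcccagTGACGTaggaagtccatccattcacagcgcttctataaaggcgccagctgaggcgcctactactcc
Atf3, chr1:191183334-191183583, minus strand: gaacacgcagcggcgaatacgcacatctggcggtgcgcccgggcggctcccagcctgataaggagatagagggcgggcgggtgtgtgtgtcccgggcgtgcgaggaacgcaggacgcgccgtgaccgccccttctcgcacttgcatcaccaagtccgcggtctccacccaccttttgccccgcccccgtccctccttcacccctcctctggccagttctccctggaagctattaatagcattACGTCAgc

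The 5 motifs were chosen after the differences were known. They were the CArG box that serum response factor binds, TGACGT (the core of the cAMP response element), TGANTCA (the AP-1 site), GGAANNTCC (a form of the NF-κB site) and GCGTGGGCG (the Egr site), none of which overlapped another in these stretches. RefSeq gave such a stretch for 8 of the 10 genes. The Egr2 stretch is 1 of 5 listed for that gene and was picked because it held matches: a CArG box 72 to 63 bases before the start and TGACGT, read on the minus strand, 56 to 51 bases before it. A CArG box stood in 1.47% of 32851 stretches of this length and TGACGT in 6.47%. Fos held TGACGT 66 to 61 bases before its start and Atf3 held it 8 to 3 bases before, on the minus strand. Ier3 held GGAANNTCC 139 to 131 bases before its start, a word found in 3.59% of stretches. No match to TGANTCA (6.75% of stretches) or GCGTGGGCG (0.536%) lay in the stretches of these genes, and Fosb, Jun, Junb and Jund held no match to any of the 5. The TGACGT core was present in the stretches shown for Egr2, Fos and Atf3, but not in all 5 stretches listed for Egr2. Whether any of these matches bears on the signals was not tested.

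Of all probes, 65.3% were well above background on the SIRPα-KO-labelled array and 71.5% on the WT array. Before the members, the targeted gene and the sample type were checked. Sirpa had a signal of 1006.4 ± 100.7 on the SIRPα-KO-labelled array and 795.0 ± 79.52 on the WT array (± is the scanner software's error of the spot), a log2 difference of 0.51 ± 0.20. This signal went against the label. The sources used here do not say whether the probe falls inside the deleted part, a probe outside it would check nothing, and all directions below follow the labels. Of 9 red pulp macrophage markers with a named probe, 8 were well above background on at least 1 array, including Adgre1, Spic and Vcam1, and Mertk was not on either. Over all named genes 76.7% were, so this count says little about the sample type. The unscaled signals of the 9 summed to 17640.1 on the SIRPα-KO-labelled array against 14070.2 on the WT array. Adgre1, the brightest of them, differed by 0.78 ± 0.20, and its further probe by -0.47. Cd5l, a secreted macrophage protein, was the 1 marker of this list at least 2-fold apart (1.46 ± 0.22). Of 54 markers of other cell types in 9 lists, 49 were well above background on at least 1 array. Of these, 0 were at least 2-fold higher on the SIRPα-KO-labelled array, where 3.11% of all measured genes were. At least 2-fold lower were 7, where 5.42% of all measured genes were. Among the 7 were S100a8 of neutrophils, Flt3 of dendritic cells, Cr2 of B cells (whose further probe differed by 0.31, the other way), Jchain and Derl3 of plasma cells, and Emcn of endothelial cells. Ccr2 of monocytes, Mpo and Ngp of neutrophils, and Cdh5 and Pdgfrb of vessels and stroma were not well above background on either array. The sums below are of unscaled signal, and the 75th percentile of all signals was itself lower on the SIRPα-KO-labelled array (89.15 against 100.2 on the WT array). The sum was 797.4 on the SIRPα-KO-labelled array against 2044.1 on the WT array for B cells, 39447.2 against 45949.9 for neutrophils, 9764.0 against 12603.9 for monocytes, and 114277.5 against 81058.0 for dendritic cells. With the SIRPα-KO-labelled array again against WT, it was 1612.4 against 2699.7 for plasma cells, 6186.9 against 8421.0 for T and NK cells, 687.8 against 918.7 for erythroid cells, 13138.8 against 13282.4 for platelets, and 592.1 against 830.0 for stromal and endothelial cells. Relative to each array's 75th percentile, the sum was higher on the SIRPα-KO-labelled array for 2 of the 9 lists, those of dendritic cells and platelets, and lower for 7. Single probes carried some of these sums. Cr2 made up 41.0% of the B cell sum on the SIRPα-KO-labelled array and 75.7% on the WT array. The other B cell markers summed to 470.1 on the SIRPα-KO-labelled array against 496.7 on the WT array. Siglech made up 99.4% of the dendritic cell sum on the SIRPα-KO-labelled array and 98.3% on the WT array, and the other dendritic cell markers summed to 674.7 on the SIRPα-KO-labelled array against 1410.7 on the WT array. Elane made up 99.6% of the neutrophil sum on the SIRPα-KO-labelled array and 99.5% on the WT array, and Vcan made up 97.0% of the monocyte sum on the SIRPα-KO-labelled array and 96.4% on the WT array. Pf4 made up 94.7% of the platelet sum on the SIRPα-KO-labelled array and 92.1% on the WT array. The other platelet markers summed to 691.3 on the SIRPα-KO-labelled array against 1046.7 on the WT array. Without each list's brightest gene, sums relative to the 75th percentile were higher on the SIRPα-KO-labelled array for 2 lists and lower for 7. Those 2 were B cells (5.274 against 4.957 on the WT array) and stromal and endothelial cells (2.311 against 2.305). In sorted bulk samples, fewer cells of a type and less RNA per cell cannot be told apart, and the part of other cells in the member values was not tested.

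Of the 10 members, 6 were well above background and 4 (Fos, Junb, Egr1 and Atf3) were not well above background on either array. Over all named genes, 23.3% were not well above background on either. A probe is called well above background by the scanner software from its own background estimate. The lowest signal so called was 9.093 on the SIRPα-KO-labelled array and 7.922 on the WT array. No fold was formed for these 4 genes, and a signal below this limit does not show that the transcript was absent.

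Fos encodes the partner of Jun in classical AP-1 and was the member with the most spots, 10 per array. On the SIRPα-KO-labelled array its spots ranged from 1.817 through a median of 1.991 to 2.216. On the WT array they ranged from 1.583 through 1.83 to 2.941. No spot was well above background on either array, and the ranges overlapped. Negative control spots, which carry sequence designed not to bind mouse transcripts, spanned 1.812 to 2.39 on the SIRPα-KO-labelled array (148 spots) and 1.587 to 2.259 on the WT array (142 spots). All 10 Fos spots of the SIRPα-KO-labelled array lay within that range, against 8 of 10 on the WT array, where 1 spot lay just under it and 1 above it. Of 388 probes that were spotted 10 times and kept at least 8 spots on each array, 125 (32.2%) likewise were not well above background on either.

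**Figure D1:**
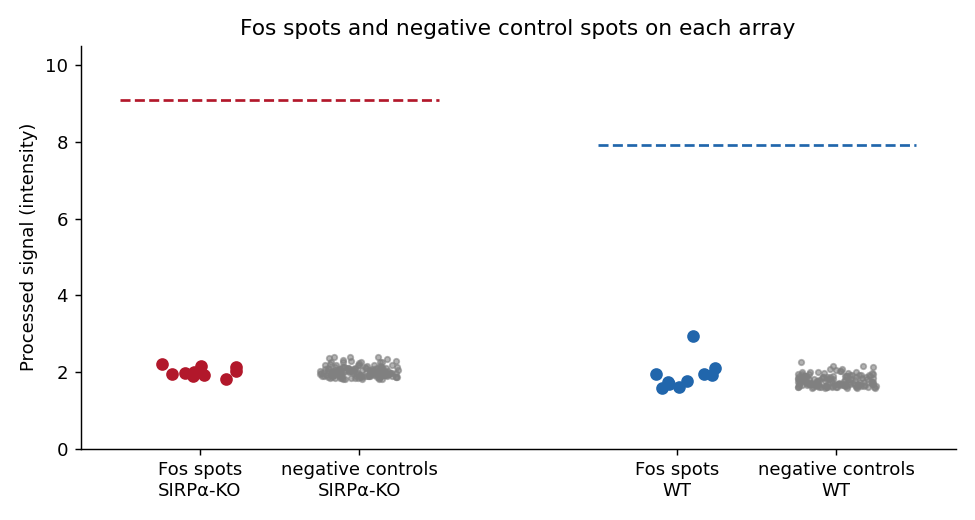
Processed signal (intensity, linear axis) of the 10 Fos spots (coloured points) and of the negative control spots (grey points) on the SIRPα-KO-labelled array and on the WT array, with a dashed line at the lowest signal called well above background on each array. All Fos spots lie at or below 2.941, near the negative controls and far under the lines at 9.093 and 7.922.

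Junb, an AP-1 protein that often restrains Jun, had a signal of 4.224 ± 2.072 on the SIRPα-KO-labelled array and 5.446 ± 2.162 on the WT array. Egr1, the founding Egr factor and a standard mark of recent stimulation, had 4.852 ± 1.965 on the SIRPα-KO-labelled array and 4.569 ± 1.71 on the WT array. Both lay above the negative control spots and below the limit on each array. Atf3, which is induced by stress and restrains inflammatory genes in macrophages, had 2.305 ± 2.302 on the SIRPα-KO-labelled array, within the range of the negative controls, and 5.077 ± 2.064 on the WT array, above that range. In the authors' deposited table, all 4 genes lay within 0.1 of the lowest log2 value of the column on each array, as did 23.6% of probes for the SIRPα-KO-labelled array and 21.5% for WT.

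**Figure D2:**
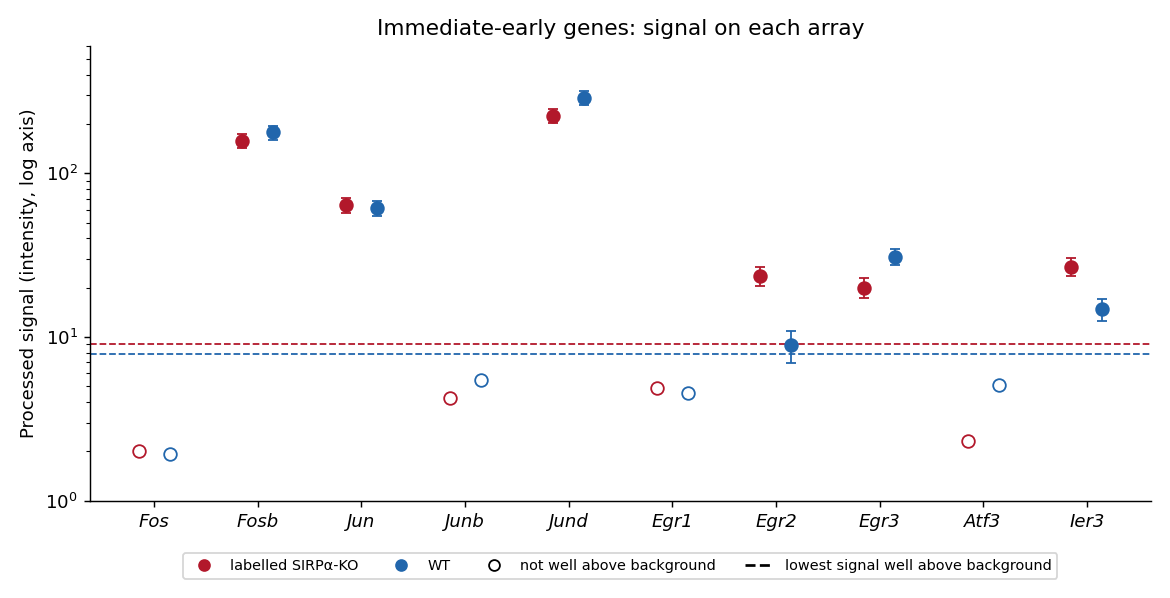
Processed signal (intensity, log axis) of the 10 members on the SIRPα-KO-labelled array (red, left of each pair) and the WT array (blue, right); bars are the spot error of points well above background, open points are not well above background, and dashed lines mark the lowest signal so called on each array. Fos, Junb, Egr1 and Atf3 lie below both lines on both arrays, and Egr2 and Ier3 are the members with the clearest gap between the arrays.

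The other members were compared after each array's log2 signal was set relative to its 75th percentile over non-control spots, a signal of 89.15 on the SIRPα-KO-labelled array and 100.2 on the WT array. Differences below are on the log2 scale, the SIRPα-KO-labelled array minus WT, and the median over all 15827 measured genes was -0.08. A gene was counted when the arrays differed at least 2-fold. By that rule 2 of the 6 members that passed the background filter, Egr2 and Ier3, were higher on the SIRPα-KO-labelled array, where 3.11% of all measured genes were, and 0 were lower, where 5.42% of all measured genes were. Their median was 0.12, and it was -0.05 without scaling and 0.21 with the percentile taken over probes well above background on both arrays.

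Among the Egr factors the differences ran both ways. Egr2 (Krox20), an activator with roles in myeloid differentiation and alternative activation, had a signal of 23.58 ± 3.066 on the SIRPα-KO-labelled array and 8.889 ± 1.978 on the WT array. The log2 difference was 1.58 ± 0.37, or 2.98-fold higher, with a 95% interval of spot error from 0.85 to 2.31. The WT signal stood only 1.12 times above the lowest signal called well above background, so the size of this fold rests on a dim spot. Egr3, a related factor best known from lymphocytes and neurons, had a signal of 20.02 ± 2.779 on the SIRPα-KO-labelled array and 30.89 ± 3.521 on the WT array. Its difference of -0.46 ± 0.26, or 1.37-fold lower, had an interval from -0.96 to 0.05, which includes 0.

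Ier3 (IEX-1), which is induced by NF-κB and by stress, had a signal of 26.87 ± 3.335 on the SIRPα-KO-labelled array and 14.78 ± 2.258 on the WT array. The log2 difference was 1.03 ± 0.28, or 2.04-fold higher, just past the 2-fold rule, with an interval from 0.48 to 1.59. Egr2, Egr3 and Ier3 all had mean signals under 40, a limit set after their values were seen. Among all measured genes under that limit, 3.62% were at least 2-fold higher on the SIRPα-KO-labelled array and 2.48% at least 2-fold lower.

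The AP-1 members that were measured differed little. Jun, the central AP-1 subunit, had a signal of 63.86 ± 6.77 on the SIRPα-KO-labelled array and 61.37 ± 6.433 on the WT array, a difference of 0.23 ± 0.22 with an interval from -0.20 to 0.65. Jund, the Jun protein that many cells make without a stimulus, had 224.0 ± 22.5 on the SIRPα-KO-labelled array and 289.2 ± 28.98 on the WT array, a difference of -0.20 ± 0.20 with an interval from -0.60 to 0.20. Fosb, a Fos relative that accumulates with repeated stimulation in neurons, had 158.6 ± 15.97 on the SIRPα-KO-labelled array and 177.6 ± 17.83 on the WT array, a difference of 0.01 ± 0.21 with an interval from -0.40 to 0.41. For these 3 genes the difference was no larger than about its own spot error, and each interval left out a 2-fold change either way.

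**Figure D3:**
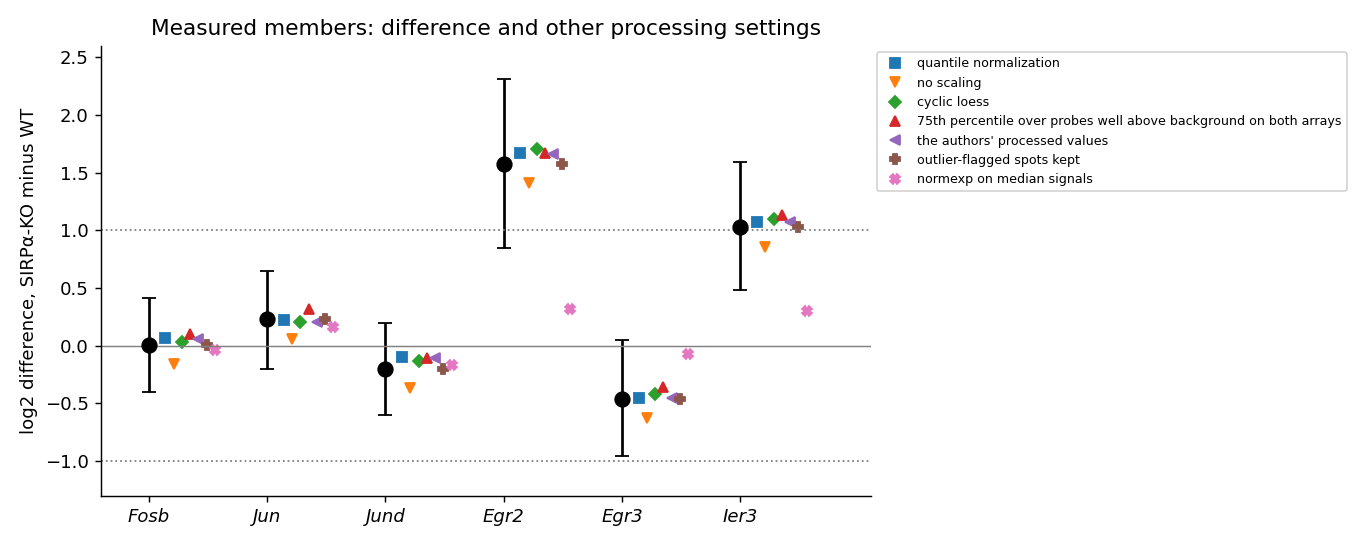
Log2 difference (SIRPα-KO-labelled array minus WT) of the 6 measured members with the 95% interval of spot error (black), and the same value under 7 other processing settings (coloured symbols); dotted lines mark a 2-fold difference. Egr2 and Ier3 lie above 1 in black and between 0.30 and 0.32 after normexp, and the other 4 members stay inside the dotted lines in every setting shown.

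Both calls were lost in 1 setting, normexp background correction of the spots' median signals with an offset of 50, where Egr2 differed by 0.32 and Ier3 by 0.30. That setting changed the input signal, the background correction and the offset together, and their parts were not tested separately. Without scaling Ier3 differed by 0.86, which also ended its call. Every member was read by 1 probe, so none had a further probe as a check. Among 69 genes at least 2-fold higher at their brightest probe and with a further probe well above background on both arrays, 7 (10.1%) were at least 2-fold higher at the next probe too, and 40 (58.0%) had the same sign.

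Related lists placed the members among the rest of the early response. Of 15 early transcription factors measured outside the set, 1 was at least 2-fold higher on the SIRPα-KO-labelled array and 1 at least 2-fold lower. Of all measured genes, 3.11% were that much higher and 5.42% that much lower, so counts of 1 in a list this short say little. The list had a median of -0.21. Klf10, a zinc-finger factor induced by TGF-β, had a signal of 32.32 on the SIRPα-KO-labelled array and 18.02 on the WT array, a difference of 1.01 ± 0.26. Maff, a small Maf protein, was 2.01-fold lower, just past the 2-fold rule. Its signal of 9.44 on the SIRPα-KO-labelled array was not called well above background. Nr4a1 (Nur77), an orphan nuclear receptor and the brightest gene of the list, had a signal of 5379.4 on the SIRPα-KO-labelled array and 11247.1 on the WT array, a difference of -0.89 ± 0.20. Of the 18 genes of this list on the array, 3 were not well above background on either array, where 23.3% of all named genes were not. The 3 were Nr4a3, Myc and Csrnp1, named after their values were seen.

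Early feedback regulators, which shut the response down again, had a median of -0.02. Of 17 measured, 1 was higher and 2 were lower by the 2-fold rule, where 3.11% and 5.42% of all measured genes were. The growth-arrest genes Gadd45a and Gadd45b went opposite ways. Gadd45a had a signal of 44.84 on the SIRPα-KO-labelled array and 21.45 on the WT array (1.23 ± 0.25), and Gadd45b had 136.2 on the SIRPα-KO-labelled array and 349.2 on the WT array (-1.19 ± 0.21). Per1, a clock gene that is also stimulus-induced, differed by -1.14 ± 0.20, and the brightest gene, the receptor signalling inhibitor Spry2, by 0.39 ± 0.20. Nab2, a corepressor that binds Egr factors and is itself an Egr target, was named after its values were seen. Its signal was 56.08 on the SIRPα-KO-labelled array and 34.43 on the WT array. The difference of 0.87 ± 0.23 was short of the 2-fold rule. The other Nab2 probe was not well above background on either array, so this signal had no check. Nab1, the other Egr corepressor, was not well above background on either array, and nor were Dusp4, Dusp5, Zfp36, Sik1 and Pim1, also named after their values were seen. These were 6 of the 23 genes of the list, where 23.3% of all named genes were not well above background on either array.

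Other leucine-zipper factors had a median of -0.05 over 14 measured genes. Of these, 1 was at least 2-fold higher and 0 were lower, where 3.11% and 5.42% of all measured genes were. Atf4, the brightest of the list and a regulator of the amino acid response, differed by 0.15 ± 0.20. Of 16 measured kinases and serum response factors upstream of the members, 0 were at least 2-fold apart (median 0.01), beside the same shares of all measured genes. The brightest probe of that list was that of Elk1, an ETS factor that joins serum response factor at CArG boxes, at 0.45 ± 0.20. Its signal was 274884.3 on the SIRPα-KO-labelled array and 226382.0 on the WT array. The other Elk1 probe was not well above background on either array, so this signal had no check.

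Heat-shock and chaperone genes, another group that tissue handling can induce, had a median of 0.00 over 14 measured genes. By the 2-fold rule 1 was higher and 0 were lower, where 3.11% and 5.42% of all measured genes were. The higher one was Hspb1, a small heat-shock protein, with a signal of 58.26 on the SIRPα-KO-labelled array and 30.47 on the WT array (1.10 ± 0.23). Hspa8, the constitutive chaperone and brightest of the list, differed by 0.01 ± 0.20, and Hspa1a, its stress-induced relative, named after its values were seen, by 0.48 ± 0.26. Of 12 measured activation genes, 5 were at least 2-fold lower on the SIRPα-KO-labelled array, where 5.42% of all measured genes were. The median was -0.53, and 0 were at least 2-fold higher, where 3.11% of all measured genes were. Il6 (-3.64 ± 0.21), Ccl3 (-1.68 ± 0.20) and the brightest gene, Il1b (-1.52 ± 0.20), were among the 5, as were Ccl4 and Ptgs2, named after their values were seen.

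**Figure D4:**
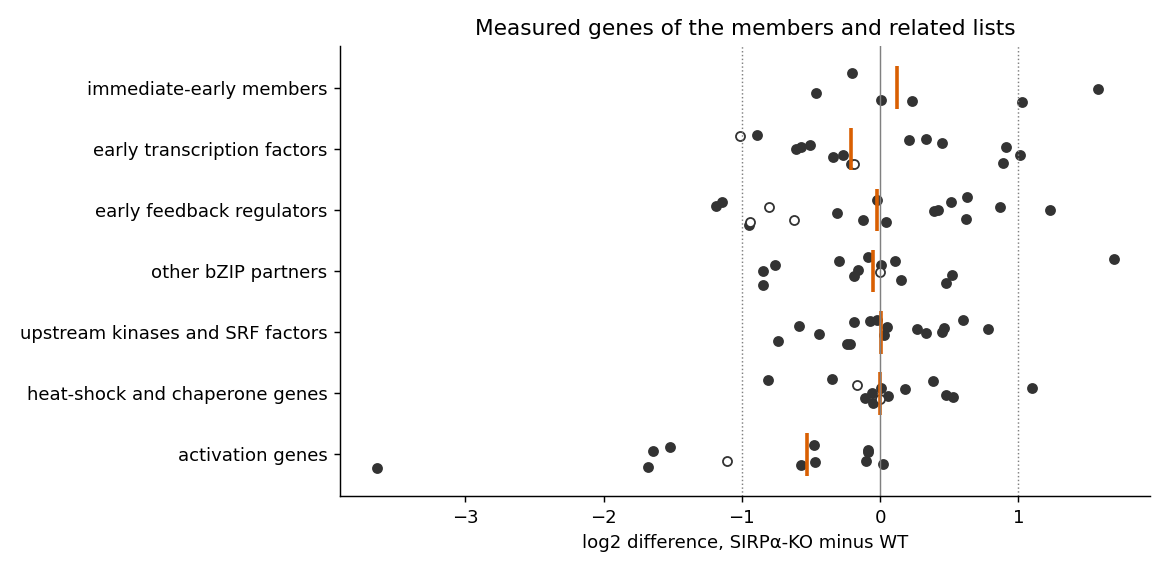
Log2 difference (SIRPα-KO-labelled array minus WT, horizontal axis) of each measured gene of the immediate-early set and of 6 related lists. Open points are genes with 1 array not well above background. They are lower bounds, differences set to 0, or plain differences where the dim value needed no raising. Orange bars are list medians, and dotted lines mark a 2-fold difference. Most genes lie inside the dotted lines, Egr2 is the farthest to the right of the immediate-early set, and 5 activation genes lie left of the line at -1.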

How the data were processed

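Spot brightness was measured on 1-colour (Cy3) arrays, 1 per genotype. The deposited scanner tables hold intensity on a linear scale from Agilent Feature Extraction 11.0.1.1 (mouse design 026655, build mm9), per the file headers. Their processed signal is the intensity after the software's background subtraction and detrending, per the file headers. The authors' deposited table gives log2 values, and no source used here states their normalization. It served as an alternative.

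Control spots and outlier-flagged spots (167 on the SIRPα-KO-labelled array, 190 on WT, of 43020) were left out. No spot was saturated. Log2 processed signal minus the array's 75th percentile was averaged over the spots of a probe. Probes were named by matching their accession, without version, to RefSeq of GRCm38.p6, used for names only; 27206 of 39386 matched. A gene was read at its brightest probe. Where 1 array was not well above background, a value under the lowest value well above background there was raised to it. This gave a lower bound, or 0 where that turned the sign. A value already over that lowest value, as for Maff, was kept as it was. A value after ± is the spot error that the software reports, carried to the log2 difference; the 95% interval is 1.96 times it. Both cover spot measurement only, not animals or pools, and precision is limited by having 1 array per genotype.

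The members and lists were chosen with earlier results of these data known. Named were all members, Sirpa, up to 2 genes each way of every related list among those at least 2-fold apart, the brightest gene of each, and markers at least 2-fold apart or not above background; others are marked. Some genes this rule took are not reported here and remain in the counts. The arrays, 1 per genotype, give no measure of likeness between genes. Python 3.11.15, numpy 2.4.6, pandas 2.3.3 and limma 3.58.1 were used, and the gene step was tested on simulated data.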

Additional observations from a re-analysis of the deposited data

How the results depend on the processing

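The 7 scaling, background and spot settings were applied to the members. Of 42 differences of the 6 measured members under them, 40 moved by less than 1.96 times the spot error and 2 moved by more, those of Egr2 (0.32) and Ier3 (0.30) after normexp on median signals, a setting chosen after the data were seen because the files hold no mean signal. Normexp on mean signals was therefore not run. That setting changed the input signal, the background correction and the offset of 50 together, and their parts were not tested separately. The count of 40 overstates what was checked. Keeping flagged spots left all 6 members unchanged. Leaving out the scaling, or changing its percentile, shifted every gene by the same small amount, which could not carry a member past its limit. Over the 7 settings Egr2 ranged from 0.32 to 1.71, Ier3 from 0.30 to 1.13 and Egr3 from -0.63 to -0.07. Fosb ranged from -0.16 without scaling to 0.10. The median of the 6 members, 0.12, ranged from -0.05 without scaling to 0.21 with the percentile over probes well above background on both arrays. The median of all genes moved from -0.08 to -0.25 without scaling and to 0.00 with the percentile taken over probes well above background on both arrays. No paired analysis was possible because each genotype had 1 array.

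The count of members at least 2-fold higher, 2, fell to 1 without scaling, and to 0 after normexp or at a 3-fold limit. Over all genes the 492 higher were 304 without scaling, 102 after normexp, 877 with dim probes unfiltered, 1806 with a 1.5-fold limit and 103 with a 3-fold limit, and the 858 lower were 1642 with dim probes unfiltered, 2086 with a 1.5-fold limit and 370 with a 3-fold limit. Of 84 counts of the 6 related lists under these settings, 19 moved by more than 1.5 times or to or from 0, and 2 others moved by less: activation genes lower, 5, were 4 after cyclic loess and after normexp. Feedback regulators lower, 2, were 4 without scaling and 1 after cyclic loess, quantile normalization or normexp and in the authors' values, and those higher, 1, were 0 after normexp. Early transcription factors higher, 1, were 0 without scaling and after normexp, and 2 with the percentile over probes above background on both arrays. Those lower, 1, were 2 without scaling and 0 after cyclic loess, quantile normalization or normexp, with that percentile and in the authors' values. Heat-shock genes higher, 1, were 0 without scaling and after normexp. Other leucine-zipper factors lower, 0, were 2 without scaling. Upstream genes higher, 0, were 1 with flagged spots kept. Apart from the size limits and the filter on dim probes, which change the counts by construction, the causes were not tested.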
